A study of Mus musculus with 8 samples.

Results

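Wnt target and feedback genes are transcribed when β-catenin reaches the nucleus, and several of them act back on the pathway. The 9 genes described here are Lef1, Tcf7, Sp5, Axin2, Nkd1, Znrf3, Rnf43, Notum and Rspo3. They were chosen by name, with no measured value in the rule, and each was found as 1 row among 27998 gene rows of the deposited counts. Their transcripts were counted cell by cell at day 5 of embryoid body culture, in 1 library labelled Tet triple knockout (TKO) and 1 labelled wild type (WT), over each library and within kinds of cells gated on marker genes.

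In canonical Wnt signalling, a secreted Wnt protein binds Frizzled and LRP receptors, which stops a cytoplasmic complex built on Axin and APC from marking β-catenin for destruction. β-catenin then works with TCF and LEF proteins on DNA. In the early embryo the pathway drives formation of the primitive streak and mesoderm, and the heart needs it early and restrained later. Some of the genes it switches on are brakes, so their transcripts are widely used as a sign of a Wnt response, although many also have other inputs.

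Both libraries were made from E14 mouse embryonic stem cells in which EmGFP reports Nkx2-5, the gene of a heart transcription factor. Cells of both genotypes were grown with leukemia inhibitory factor on growth-arrested mouse embryonic fibroblast feeders, then left without that factor to form embryoid bodies in hanging drops, and no treatment was given. The TKO-labelled cells carry a knockout of the 3 Tet genes, which encode the enzymes that oxidise 5-methylcytosine, and whether they are 1 clone is not given in the sources used here. The WT-labelled cells are described as wild type with the same reporter. The other 6 samples of the series, pull-downs of 5-hydroxymethylcytosine, were not analysed here.

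After filters, 3196 cells with 33483998 counts of unique molecular identifiers (UMIs) remained in the TKO-labelled library, against 4389 cells with 37503810 UMIs in the WT-labelled library. Median depth was 9678 UMIs a cell in TKO and 7847 in WT. Transcripts of the targeted genes were still counted, at 22.8, 4.60 and 20.3 CPM (UMI counts scaled to a library total of 1000000) for Tet1, Tet2 and Tet3 in TKO, against 12.3, 6.83 and 29.1 CPM in WT. Which exons the knockout removes is not stated, so these levels check neither label. Of the barcodes in the file headers, 21 were shared by both libraries. Cells with at least 3 of 8 matrix genes such as Col1a1, Col3a1, Dcn and Lum numbered 1 in TKO and 1631 in WT, and the 8 genes summed to 8.15 CPM in TKO and 1067 CPM in WT, with no gene of the 8 at 0 in either library. Fibroblasts express the same genes, and the part of carried-over feeder cells in the results was not tested. With 1 library per genotype, differences have no replicate check and no test was made. A range in brackets is an exact 95% interval for counting error only, and over a whole library fewer cells of a type and less RNA per cell cannot be told apart.

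The genome sequences next to these genes show how differently the members carry the letters that TCF and LEF proteins bind. Searched were the letters CTTTGA and CTTTGT on both strands, the core of the TCF/LEF motif, which read TCAAAG and ACAAAG on the other strand. RefSeq windows of 250 bases before an annotated transcript start (mouse build GRCm38.p6) were at hand for 6 of the 9 members, 11 windows in all, and none is shown for Notum, Znrf3 and Rspo3. The window of Sp5 (chr2:70474673-70474922, plus strand) held 4 matches, which 0.0944% of 32851 windows of the same length reached or passed. The window of a Lef1 start inside the gene (chr3:131156044-131156293, plus strand), 45997 bases after its outermost start, held 3, which 0.776% of windows reached or passed. The Axin2 window (chr11:108920099-108920348, plus strand), of a start 2521 bases after the outermost start of the gene, held none. Nor did the other windows of Lef1 or those of Nkd1, Tcf7 and Rnf43, while 27.6% of all windows held at least 1. The Nkd1 start lies 6291 bases after its outermost start, and the Tcf7 starts lie 369 and 788 bases after theirs. The bases before the outermost starts of Axin2, Nkd1 and Tcf7 were therefore not searched. A Rnf43 start lies 36810 bases inside its gene and a further Lef1 start 2494 bases. The windows of Sp5 and Lef1 were picked because they are the member windows with a match, and that of Axin2 as 1 without. They are printed 5′ to 3′, and capitals mark the matches.
Sp5: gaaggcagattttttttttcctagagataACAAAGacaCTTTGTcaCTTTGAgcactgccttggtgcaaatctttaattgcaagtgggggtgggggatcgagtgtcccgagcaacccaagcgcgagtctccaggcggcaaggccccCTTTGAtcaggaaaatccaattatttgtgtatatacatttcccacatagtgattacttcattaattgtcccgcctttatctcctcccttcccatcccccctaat
Lef1: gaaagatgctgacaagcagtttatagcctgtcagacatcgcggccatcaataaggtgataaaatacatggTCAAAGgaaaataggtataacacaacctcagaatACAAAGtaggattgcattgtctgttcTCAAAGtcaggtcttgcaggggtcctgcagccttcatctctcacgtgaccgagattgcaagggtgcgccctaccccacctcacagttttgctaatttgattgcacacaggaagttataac
Axin2: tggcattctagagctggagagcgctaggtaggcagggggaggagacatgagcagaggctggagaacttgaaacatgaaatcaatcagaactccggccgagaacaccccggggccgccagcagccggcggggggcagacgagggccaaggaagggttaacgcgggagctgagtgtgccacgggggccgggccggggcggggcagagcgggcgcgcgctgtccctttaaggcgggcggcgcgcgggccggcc
A match describes these letters and is not a bound site, and sites farther from the start were not searched. The windows differed in CpG content as well, the dinucleotide whose methylation TET enzymes oxidise. The Axin2 window held 24 CpG and the Sp5 window 6, where the median of all windows was 6.

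The whole gene bodies, on the same build, are as follows. Lef1 lies on chromosome 3, 131110297 to 131224357, and Sp5 on chromosome 2, 70474923 to 70477726. Chromosome 11 carries 5 of the members: Znrf3 (5276329 to 5444847), Tcf7 (52246527 to 52283383), Rnf43 (87663087 to 87735539), Axin2 (108917828 to 108950783) and Notum (120653788 to 120661193). Nkd1 lies on chromosome 8, 88521342 to 88594887, and Rspo3 on chromosome 10, 29453106 to 29535867. Counts were matched by gene symbol, and the counting used whichever transcripts the authors chose, which are not given.

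Of the 9 members, 7 had a ratio of TKO to WT above 1 and 2 below, where 9083 of 15344 genes with at least 10 UMIs were above 1. Lef1, Sp5 and Rnf43 were more than 2-fold higher in the TKO-labelled library and Nkd1 was more than 2-fold lower. In the background, 13.5% of these genes were past 2-fold higher in TKO and 12.3% past 2-fold lower. The median log2 ratio was 0.37 over the members and 0.14 over all these genes. The members therefore did not move one way, and the transcription factors and the brakes are given apart.

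**Figure D1:**
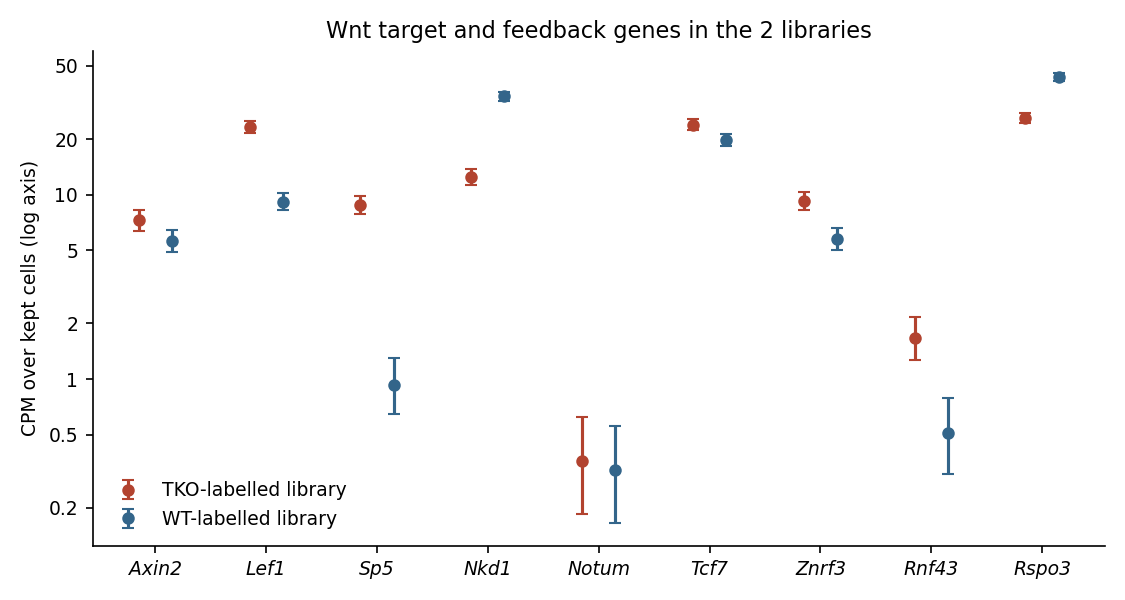
Level of each member in CPM on a log axis, in the TKO-labelled library (left point of each pair) and the WT-labelled library (right point), with exact 95% counting intervals as bars. Lef1, Sp5 and Rnf43 lie higher in TKO, Nkd1 and Rspo3 lie lower, and the intervals of Notum overlap.

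Among the transcription factors, Sp5 differed most between the libraries. Sp5, a zinc finger protein of the SP family that Wnt signalling switches on in the primitive streak, stood at 8.81 CPM in TKO (295 UMIs) and 0.933 CPM in WT (35 UMIs), a ratio of 9.44 (6.64 to 13.8). Its UMIs came from few cells, 155 in TKO and 25 in WT, and 11 TKO cells with at least 5 UMIs each held 24.1% of the TKO total. Lef1, which binds DNA with β-catenin, stood at 23.3 CPM in TKO (780 UMIs) and 9.15 CPM in WT (343 UMIs), 2.55-fold higher in TKO (2.24 to 2.90). Lef1 was spread over more cells, 603 in TKO and 281 in WT. Tcf7, the gene of the related factor TCF1, was nearer to parity at 23.9 CPM in TKO (800 UMIs) and 19.8 CPM in WT (742 UMIs), a ratio of 1.21 (1.09 to 1.34). Tcf7 overlaps Skp1 in the annotation and use of strand in counting is not given, so its level is uncertain. Under median-ratio scaling the log2 ratio of Tcf7 was 0.14, and its interval held 0 (-0.01 to 0.28).

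Of the feedback genes that act inside the cell, Nkd1 was the one past 2-fold. Axin2, a scaffold of the destruction complex and the most used reporter of the pathway, stood at 7.26 CPM in TKO (243 UMIs) and 5.63 CPM in WT (211 UMIs), a ratio of 1.29 (1.07 to 1.56) that is within the 2-fold band. Under median-ratio scaling its log2 ratio was 0.23 with an interval that holds 0 (-0.04 to 0.51). Nkd1, a Dishevelled-binding inhibitor, stood at 12.5 CPM in TKO (418 UMIs) and 34.1 CPM in WT (1279 UMIs), 2.73-fold lower in TKO (2.44 to 3.06). With cells of at least 3 matrix markers left out of both libraries, an alternative chosen after seeing the data, the log2 ratio of Nkd1 was -1.16 instead of -1.45 and that of Lef1 1.07 instead of 1.35.

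At the receptor, Znrf3 and Rnf43 encode membrane ubiquitin ligases that remove Frizzled from the cell surface. Znrf3 stood at 9.20 CPM in TKO (308 UMIs) and 5.73 CPM in WT (215 UMIs), a ratio of 1.60 (1.34 to 1.92). Rnf43 was thinly counted, with 56 UMIs in TKO (1.67 CPM) and 19 UMIs in WT (0.507 CPM), a ratio of 3.30 (1.93 to 5.88). In the annotation Rnf43 overlaps a lncRNA gene and a pseudogene, so its few counts are uncertain as well. After thinning each cell to 4000 UMIs the log2 ratio of Rnf43 was 1.16, with an interval that holds 0 (-0.13 to 2.53).

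Of the secreted regulators, only Rspo3 showed a direction. Rspo3, an R-spondin that shields Frizzled by drawing ZNRF3 and RNF43 to LGR receptors, stood at 26.0 CPM in TKO (871 UMIs) and 43.3 CPM in WT (1625 UMIs), 1.67-fold lower in TKO (1.53 to 1.81). Notum, an enzyme that strips the lipid from Wnt proteins, had 12 UMIs in each library, 0.358 CPM in TKO and 0.320 CPM in WT, and its ratio of 1.12 (0.460 to 2.73) shows no direction at this depth. Rspo3 was concentrated in few cells. In TKO, 37 cells with at least 5 UMIs held 40.3% of its UMIs, against 58 cells and 27.1% in WT, and 1 TKO cell held 29.

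Thinning each cell to 4000 UMIs gave the share of cells with a UMI at equal depth, over 3006 TKO and 4017 WT cells. Lef1 was seen in 8.75% of TKO cells (7.76 to 9.82) and 3.41% of WT cells (2.87 to 4.02), and without thinning in 18.9% of TKO and 6.40% of WT cells. Nkd1 was seen in 4.99% of TKO cells (4.24 to 5.83) and 12.5% of WT cells (11.5 to 13.5), and unthinned in 11.5% of TKO and 23.0% of WT cells. Sp5 was seen in 2.66% of TKO cells (2.12 to 3.30) and 0.398% of WT cells (0.228 to 0.646), and unthinned in 4.85% of TKO and 0.570% of WT cells. In the 238 globin-rich WT cells, red cell precursors with a median of 9283 UMIs against 10003 in thinned TKO cells and 8171 in thinned WT cells, these shares were 0.420% for Lef1, 2.52% for Nkd1 and 0.420% for Sp5. The level for Lef1 and for Sp5 in globin-rich cells is 1 cell of 238, with an interval up to 2.32%, so it does not settle whether the low WT share of Sp5 is background. Tcf7 was seen in 8.82% of TKO and 8.46% of WT cells. It was also seen in 7.56% of globin-rich cells, with an interval (4.54 to 11.7) that holds both library shares. Whether the globin-rich share is background was not tested, so it sets no order between the libraries. At least 1 member was seen in 32.1% of TKO cells and 34.8% of WT cells, and at least 3 members in 0.699% of TKO and 0.423% of WT cells. The members were therefore rarely counted in the same cell at this depth.

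To see where the transcripts came from, cells were assigned to kinds by markers that exclude the 9 members. A cell was gated if it had at least 3 of the 8 markers of a list after thinning, and more than of any other list, and globin-rich cells had at least 5% of UMIs from globin genes. This left 1300 TKO and 725 WT cells that met no gate, called ungated here. A further 83 TKO and 467 WT cells tied between lists. Another 190 TKO and 372 WT cells were too shallow to thin, so these cells had no kind either. The libraries shared few kinds. With at least 50 cells, TKO held 668 definitive endoderm-like, 320 cardiac progenitor-like, 209 formative epiblast-like, 197 lateral mesoderm-like, 100 cardiomyocyte-like and 72 head and paraxial mesoderm-like cells. WT held 1313 lateral mesoderm-like, 915 matrix-rich mesenchyme-like, 238 globin-rich, 112 endothelial-like, 79 extraembryonic endoderm-like and 62 definitive endoderm-like cells. Cells at the minimum of 3 markers made up 326 of the TKO and 26 of the WT definitive endoderm-like cells, and 98 of the TKO and 436 of the WT lateral mesoderm-like cells.

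**Figure D2:**
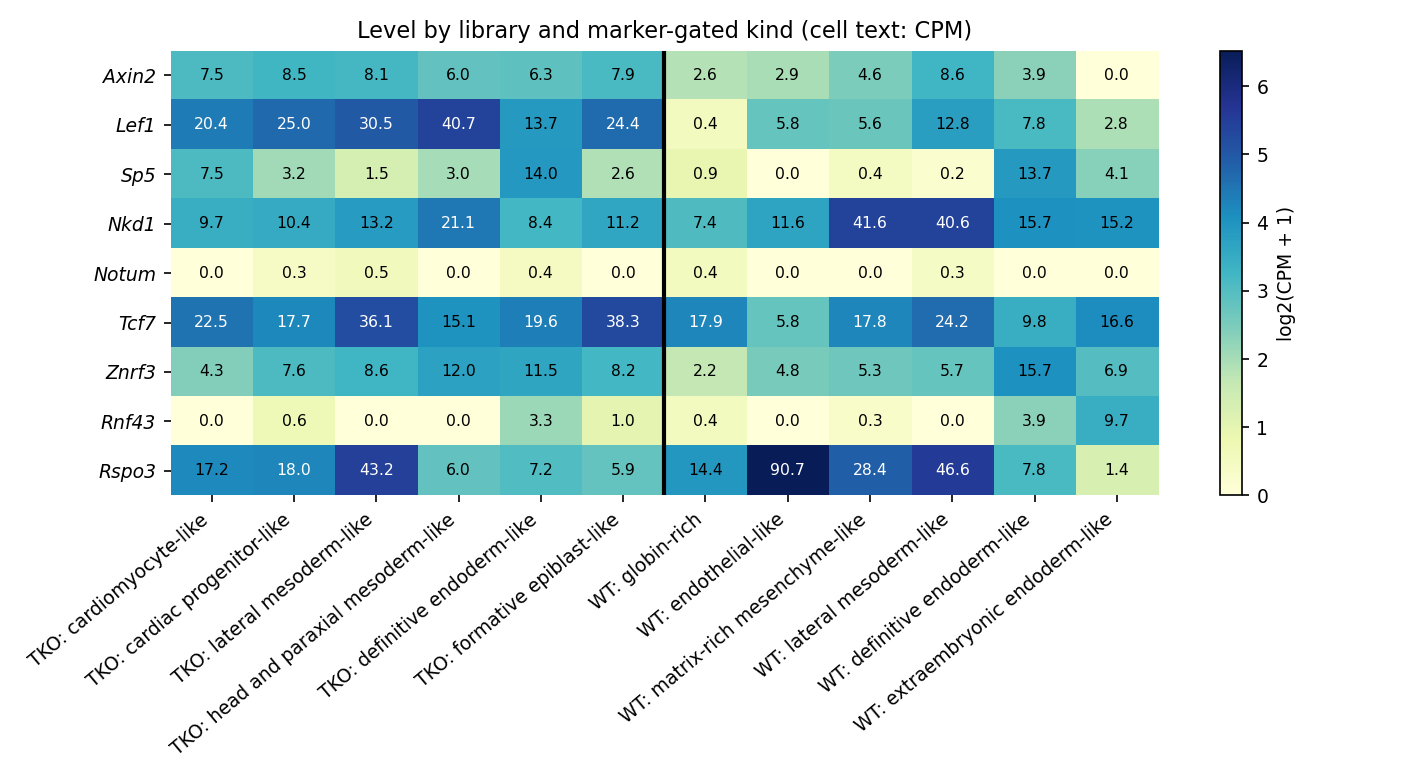
Level of the 9 members (rows) in the 12 groups of library and marker-gated kind with at least 50 cells (columns, TKO left of the black line and WT right of it), coloured by log2(CPM + 1) with the CPM printed. Sp5 stands at 14.0 and 13.7 CPM in the definitive endoderm-like cells of TKO and WT, Rspo3 is highest in WT endothelial-like cells at 90.7 CPM, and Nkd1 is highest in WT matrix-rich and lateral mesoderm-like cells.

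Ordered by level, most neighbouring groups could not be told apart: the intervals of 5 of 99 neighbouring pairs were clear of each other. Lef1 ran highest in TKO head and paraxial mesoderm-like cells at 40.7 CPM (26.8 to 59.1), the 6 TKO kinds came before the 6 WT kinds, and the lowest TKO kind, definitive endoderm-like at 13.7 CPM (11.2 to 16.7), overlapped the highest WT kind, lateral mesoderm-like at 12.8 CPM (10.8 to 15.0). Tcf7 was highest in TKO formative epiblast-like cells, which resemble the epiblast before gastrulation, at 38.3 CPM (31.6 to 45.9), with TKO lateral mesoderm-like cells next at 36.1 CPM (28.2 to 45.5). Both lay clear of the third group, WT lateral mesoderm-like cells at 24.2 CPM (21.4 to 27.1).

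Among kinds of at least 50 cells, Sp5 ranked first in definitive endoderm-like cells of either library, with no neighbouring pair clear in its order. It stood at 14.0 CPM in TKO definitive endoderm-like cells (105 UMIs) and 13.7 CPM in WT definitive endoderm-like cells (7 UMIs). The other kinds ran from 1.52 CPM in TKO lateral mesoderm-like to 7.51 CPM in TKO cardiomyocyte-like cells within TKO, and from 0 in WT endothelial-like to 4.14 CPM in WT extraembryonic endoderm-like cells within WT. The cardiomyocyte-like value rests on 7 UMIs in 2 cells. Rnf43 was likewise counted in endoderm, with 3.33 CPM in TKO definitive endoderm-like cells (25 UMIs, 44.6% of the TKO total), 3.92 CPM in WT definitive endoderm-like cells (2 UMIs) and 9.67 CPM in WT extraembryonic endoderm-like cells (7 UMIs). Neither lateral mesoderm-like group held a Rnf43 UMI, with intervals up to 1.88 CPM in TKO and 0.312 CPM in WT.

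Axin2 ran from 6.02 CPM in TKO head and paraxial mesoderm-like to 8.53 CPM in TKO cardiac progenitor-like cells across the 6 TKO kinds. Across the 6 WT kinds it ran from 0 in extraembryonic endoderm-like cells to 8.62 CPM in lateral mesoderm-like cells, with globin-rich cells at 2.61 CPM, endothelial-like at 2.89 CPM, definitive endoderm-like at 3.92 CPM and matrix-rich mesenchyme-like at 4.58 CPM. No neighbouring pair in its order was clear. The interval of WT lateral mesoderm-like cells (7.03 to 10.5) was, however, clear of those of WT matrix-rich (3.21 to 6.34), globin-rich (0.959 to 5.69) and extraembryonic endoderm-like cells (0 to 5.09). The 5 TKO extraembryonic endoderm-like cells, too few for this order, held 4 Axin2 UMIs (56.9 CPM, 15.5 to 146). Znrf3 ran from 4.29 CPM in TKO cardiomyocyte-like to 12.0 CPM in TKO head and paraxial mesoderm-like cells within TKO, and from 2.18 CPM in WT globin-rich to 15.7 CPM in WT definitive endoderm-like cells within WT, also with no clear neighbours. Notum had at most 4 UMIs in any of the 12 groups and has no order.

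Nkd1 was highest in WT matrix-rich mesenchyme-like cells at 41.6 CPM (37.2 to 46.4) and WT lateral mesoderm-like cells at 40.6 CPM (37.1 to 44.4), both clear of the next group, TKO head and paraxial mesoderm-like cells at 21.1 CPM (11.5 to 35.4). Among these groups of at least 50 cells, Rspo3 was highest in WT endothelial-like cells, which line vessels, at 90.7 CPM (73.3 to 111), followed by lateral mesoderm-like cells at 43.2 CPM in TKO (34.5 to 53.4) and 46.6 CPM in WT (42.8 to 50.7), whose intervals overlapped. It was low in endoderm, at 7.20 CPM in TKO and 7.84 CPM in WT definitive endoderm-like cells.

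Only lateral mesoderm-like and definitive endoderm-like cells reached 50 in each library and could be set side by side. Within lateral mesoderm-like cells, 6 members had at least 10 UMIs, 1 of them past 2-fold higher in TKO and 1 past 2-fold lower, where 8.5% and 10.8% of 12193 genes were. Lef1 stood at 30.5 CPM in TKO (60 UMIs) and 12.8 CPM in WT (151 UMIs), a ratio of 2.39 (1.74 to 3.24). Nkd1 stood at 13.2 CPM in TKO (26 UMIs) and 40.6 CPM in WT (481 UMIs), a ratio of 0.325 (0.210 to 0.482). Both were close to their ratios over the whole library. Tcf7 had a ratio of 1.49 (1.13 to 1.94), and of 1.32 (0.982 to 1.76) with the highest 5% of doublet scores left out. Rspo3, at 0.926 (0.728 to 1.17), and Axin2, at 0.943 (0.520 to 1.61), had intervals that hold 1, and so did Znrf3, with a log2 ratio of 0.59 (-0.27 to 1.37, no difference being 0). Sp5 had 3 UMIs in TKO and 2 in WT and Rnf43 none, so neither has a fold. Wider gates gave Sp5 a few more UMIs and a ratio above 1, of 7.38 (1.75 to 35.6) from 6 TKO and 4 WT UMIs at 2 markers and of 4.44 (1.23 to 15.4) from 6 TKO and 7 WT UMIs on unthinned counts.

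The lateral mesoderm-like cells of the libraries were not alike. Of their gating markers, Pitx1, a hindlimb and mandible factor, stood at 9.15 CPM in TKO and 102 CPM in WT, Hand1 at 514 CPM in TKO and 879 CPM in WT, and Foxf1 at 179 CPM in TKO and 65.1 CPM in WT. The matrix list summed to 51.3 CPM in TKO and 809 CPM in WT lateral mesoderm-like cells, with 1 of its 8 genes at 0 in TKO and 0 of 8 in WT. Among cells of this kind with no matrix marker, 177 in TKO and 225 in WT, Nkd1 still stood at 12.4 CPM in TKO and 33.5 CPM in WT, a ratio of 0.368 (0.217 to 0.603). Lef1, however, stood at 31.4 CPM in TKO and 25.2 CPM in WT, a ratio of 1.25 (0.840 to 1.86), and Tcf7 had a ratio of 1.22 (0.833 to 1.79). In the 1088 WT cells of this kind with at least 1 matrix marker Lef1 was 10.2 CPM. Rspo3 was then lower in TKO, at 43.2 CPM against 67.1 CPM in WT, a ratio of 0.645 (0.481 to 0.859). This split was chosen after seeing the data. In these cells Nkd1 was still past 2-fold lower in TKO, and neither Lef1 nor Tcf7 was distinguishable from parity.

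Within definitive endoderm-like cells, 8 members had at least 10 UMIs and none was past 2-fold, where 11.1% of 11604 genes were past 2-fold higher in TKO and 10.5% lower. Sp5, which differed most over the whole library, had a ratio of 1.02 (0.478 to 2.60) here. With at least 4 markers required, which leaves 342 TKO and 36 WT cells, the log2 ratio of Sp5 was 2.27 instead of 0.03, from 67 UMIs in TKO and 1 in WT, and the interval of that ratio (0.837 to 193) also held 1. The 62 WT cells set the width of the intervals: Nkd1 had a ratio of 0.536 (0.256 to 1.30), Lef1 1.75 (0.664 to 6.55) and Tcf7 2.00 (0.838 to 6.25), and the intervals of Axin2, Znrf3, Rnf43 and Rspo3 also held 1. With the gate on unthinned counts and 99 WT cells, Tcf7 had a ratio of 2.26 (1.13 to 5.30), which excludes 1, and Nkd1 one of 0.910 (0.442 to 2.18). Among the gating markers, Trh stood at 1925 CPM in TKO and 280 CPM in WT and Hhex at 93.5 CPM in TKO and 210 CPM in WT, so these cells differed too, and the WT cells held a median of 2 extraembryonic endoderm markers.

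**Figure D3:**
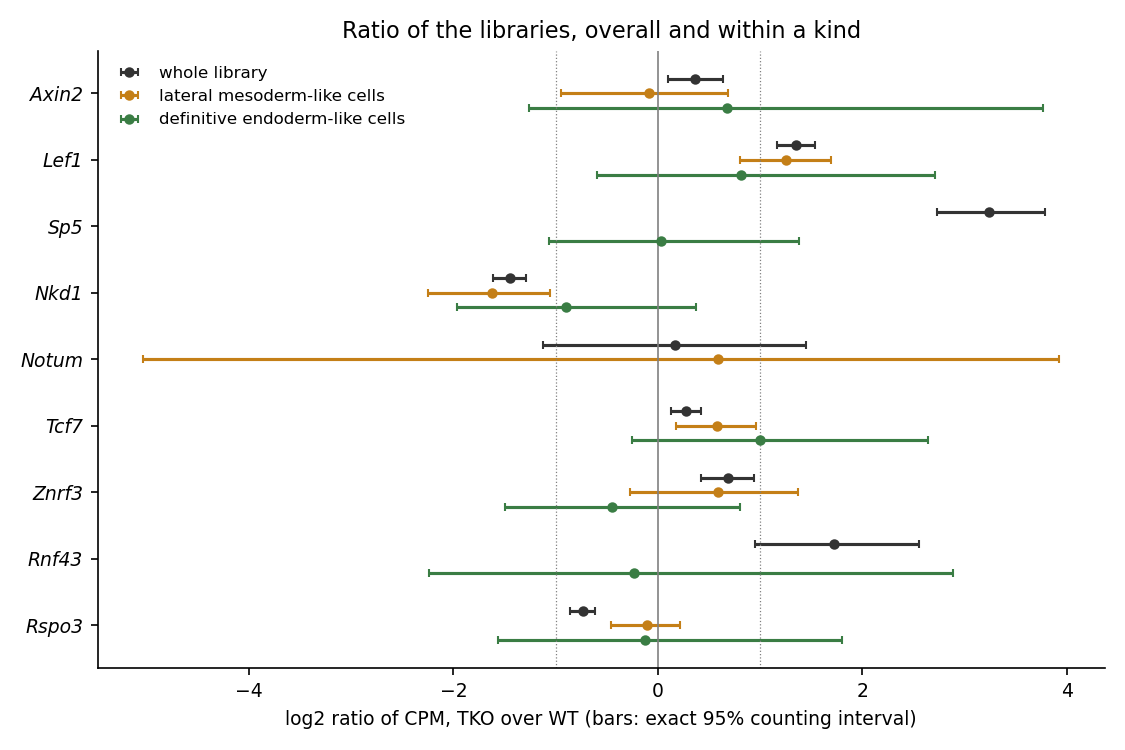
Log2 ratio of CPM in TKO over WT for each member, over the whole library and within lateral mesoderm-like and definitive endoderm-like cells, with exact 95% counting intervals; dotted lines mark 2-fold, and a member at or under 3 UMIs in both groups has no point. Nkd1 lies left of parity in the library and in lateral mesoderm-like cells, and Sp5 lies at 3.24 over the library and 0.03 in definitive endoderm-like cells.

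A small population of TKO cells stood apart. T (Brachyury), a Wnt-responsive factor of the primitive streak and the notochord, had 338 UMIs in TKO and 18 in WT, and 71 TKO cells and 8 WT cells carried a T UMI. The 71 TKO cells held 2.37% of the UMIs of the library but 32.8% of the Rspo3 UMIs. Rspo3 stood at 360 CPM in them (319 to 404) and 17.9 CPM in the 3125 TKO cells without T. Sp5 stood at 45.3 and 7.92 CPM, Lef1 at 45.3 and 22.8 CPM, and Nkd1 at 32.7 and 12.0 CPM in TKO cells with and without T. Axin2 (8.80 and 7.22 CPM), Tcf7 (20.1 and 24.0 CPM) and Znrf3 (8.80 and 9.21 CPM) overlapped within counting error. Shh, a signal made by the notochord, stood at 62.9 and 1.38 CPM, and Foxa2, a factor of node and endoderm, at 104 and 25.3 CPM. Cer1, a secreted antagonist of Wnt, Nodal and BMP in anterior endoderm, stood at 56.6 CPM (41.3 to 75.7) with T and 5.78 CPM without, and among ungated TKO cells at 49.1 and 2.81 CPM. Sox17, an endoderm factor, went the other way, at 17.6 CPM (9.63 to 29.5) with T and 35.1 CPM (33.1 to 37.2) without. Eomes stood at 23.9 CPM (14.4 to 37.3) with T and 9.91 CPM (8.86 to 11.1) without. Of the 71 cells, 51 met no gate and 11 were definitive endoderm-like.

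**Figure D4:**
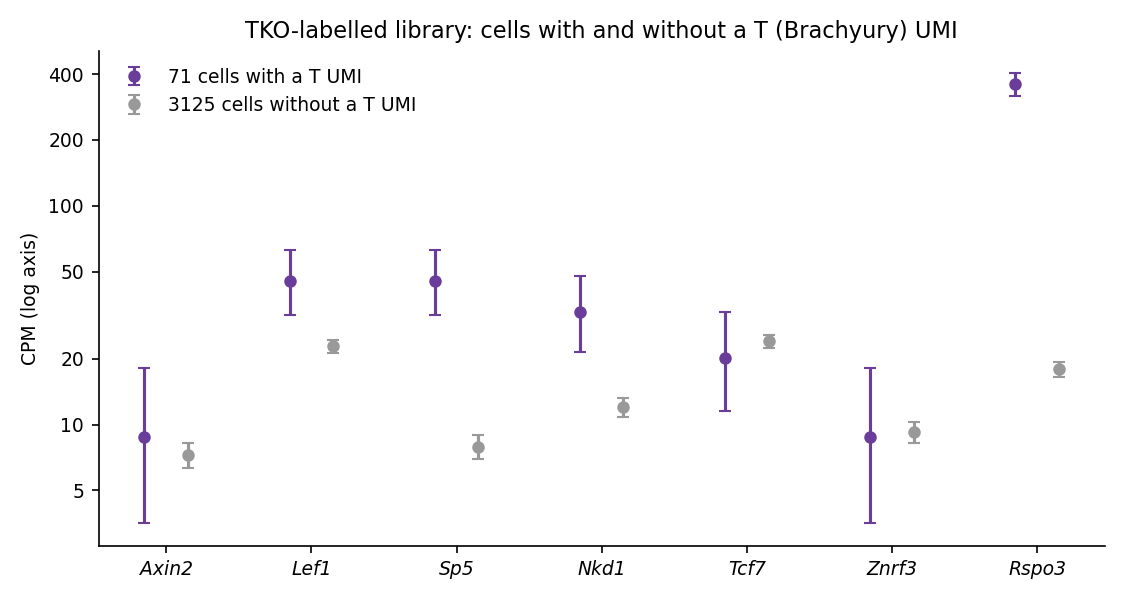
Level of 7 members in CPM on a log axis in TKO-labelled cells with a T UMI (71 cells, left points) and without (3125 cells, right points), with exact 95% counting intervals. Rspo3 stands at 360 CPM against 17.9 CPM, Sp5, Lef1 and Nkd1 are also higher in cells with T, and Axin2, Tcf7 and Znrf3 overlap.

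The few WT cells with T also carried Rspo3, 22 UMIs in 8 cells at 286 CPM (179 to 432), against 42.8 CPM in the other WT cells, and they held no Shh and no Sp5 UMI. In so few cells a count of 0 has an interval up to 47.9 CPM, which overlaps the intervals of Shh and Sp5 in TKO cells with T. Foxa2, Cer1 and Eomes were at 0 in these WT cells as well. That interval also overlaps those of Cer1 and Eomes in TKO cells with T, but lies below that of Foxa2 (83.1 to 129). With T-positive cells left out of both libraries, an alternative chosen after seeing the data, the log2 ratio of Rspo3 was -1.26 instead of -0.74, so Rspo3 was past 2-fold lower in TKO.

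Of the 155 TKO cells with an Sp5 UMI, 61 were definitive endoderm-like and 74 met no gate. The 61 endoderm-like cells held Cer1 at 140 CPM (115 to 170), against 6.39 CPM in the 607 endoderm-like cells without Sp5. Cer1 and Sox17 are themselves among the 8 markers of this gate. The cells also held Sox17 at 212 CPM with Sp5 (181 to 247) and 114 CPM without (106 to 122). Foxa2, another marker of this gate, overlapped at 93.6 CPM with Sp5 (73.3 to 118) and 80.8 CPM without (74.2 to 87.9). Eomes, which is not a marker of this gate, stood at 35.1 CPM with Sp5 (23.1 to 51.1) and 11.4 CPM without (9.03 to 14.3). Axin2 stood at 13.0 CPM with Sp5 (10 UMIs, 6.24 to 23.9) and 5.50 CPM without (3.87 to 7.58), so its intervals overlap. Summed over the 74 ungated cells, T stood at 129 CPM and Cer1 at 4.48 CPM, against 10.2 and 4.55 CPM in the 1226 ungated cells without Sp5. T was at 3.90 CPM in the endoderm-like cells with Sp5 (3 UMIs, 0.804 to 11.4) and 8.17 CPM in those without (6.15 to 10.6), with overlapping intervals. Both T and Sp5 were counted in only 15 TKO cells, so most of the 74 ungated cells with Sp5 held no T UMI. Of the Sp5 UMIs in ungated TKO cells, 31 were in the 51 cells with T and 120 in the 1249 without. Over all TKO cells Nkd1 was 25.9 CPM in cells with Sp5 (19.2 to 34.3) and 11.7 CPM in those without (10.5 to 12.9). Lef1 was 19.6 CPM with Sp5 (13.8 to 27.0) and 23.5 CPM without (21.9 to 25.3), and its intervals overlap. Cells with an Sp5 UMI were also deeper, with a median of 11208 UMIs against 9591.

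Across the wider pathway, 45 further genes in 4 lists were counted, 41 of them with at least 10 UMIs. In all, 8 were past 2-fold higher in TKO and 3 past 2-fold lower, beside 13.5% and 12.3% of all genes. None of the 11 genes of the destruction complex and cytoplasm was past 2-fold, and their log2 ratios ran from -0.08 to 0.64. Ctnnb1, the gene of β-catenin, stood at 190 CPM in TKO and 151 CPM in WT, and Apc, a scaffold of the destruction complex, at 30.6 CPM in TKO and 19.7 CPM in WT. None of the 7 tested genes of the R-spondin and receptor module was past 2-fold either, with Lgr4, a receptor of R-spondins, nearest at 16.2 CPM in TKO and 28.6 CPM in WT.

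Of 10 nuclear partners, 3 were past 2-fold higher in TKO and 1 lower, beside the same 13.5% and 12.3% of all genes. The 3 are Groucho-family corepressors that sit on TCF factors without β-catenin: Tle1 (32.1 CPM in TKO, 5.60 in WT, ratio 5.74, 4.95 to 6.69), Tle2 (2.42 CPM in TKO, 0.613 in WT, ratio 3.94) and Tle4 (18.8 CPM in TKO, 6.29 in WT, ratio 2.98). Tle3 of the same family was lower in TKO, at 28.9 CPM against 44.7 CPM in WT, within 2-fold. Pygo1, a coactivator that binds BCL9, was past 2-fold lower at 1.82 CPM in TKO and 6.51 CPM in WT. Tcf7l2 stood at 84.5 CPM in TKO and 43.8 CPM in WT, and Tcf7l1 at 50.6 CPM in TKO and 53.6 CPM in WT.

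The other reported Wnt targets went both ways, as the members did. Of 13 with at least 10 UMIs, 5 were past 2-fold higher in TKO and 2 lower, against a background of 13.5% and 12.3%. Higher were T (10.1 CPM in TKO, 0.480 in WT), Sp8, a relative of Sp5 (2.03 CPM in TKO, 0.133 in WT), and Fzd7, a Frizzled receptor (53.0 CPM in TKO, 11.4 in WT). So were Dkk1, a secreted blocker of LRP receptors (42.1 CPM in TKO, 9.20 in WT), and Ascl2 (1.67 CPM in TKO, 0.427 in WT). Lower were Cd44, an adhesion receptor, at 2.39 CPM in TKO and 9.28 CPM in WT, and Apcdd1, which had 2 UMIs in TKO and 12 in WT and is named after its values were seen. The cell cycle targets Ccnd1 (23.0 CPM in TKO, 17.2 in WT) and Myc (6.57 CPM in TKO, 8.75 in WT) lay within 2-fold. Cdx1, Cdx4 and Msgn1 of the posterior embryo had at most 1 UMI in either library. Cdx2, however, stood at 10.5 CPM in TKO (352 UMIs) and 20.6 CPM in WT (774 UMIs). Its ratio of 0.509 (0.448 to 0.579) lay just within 2-fold.

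**Figure D5:**
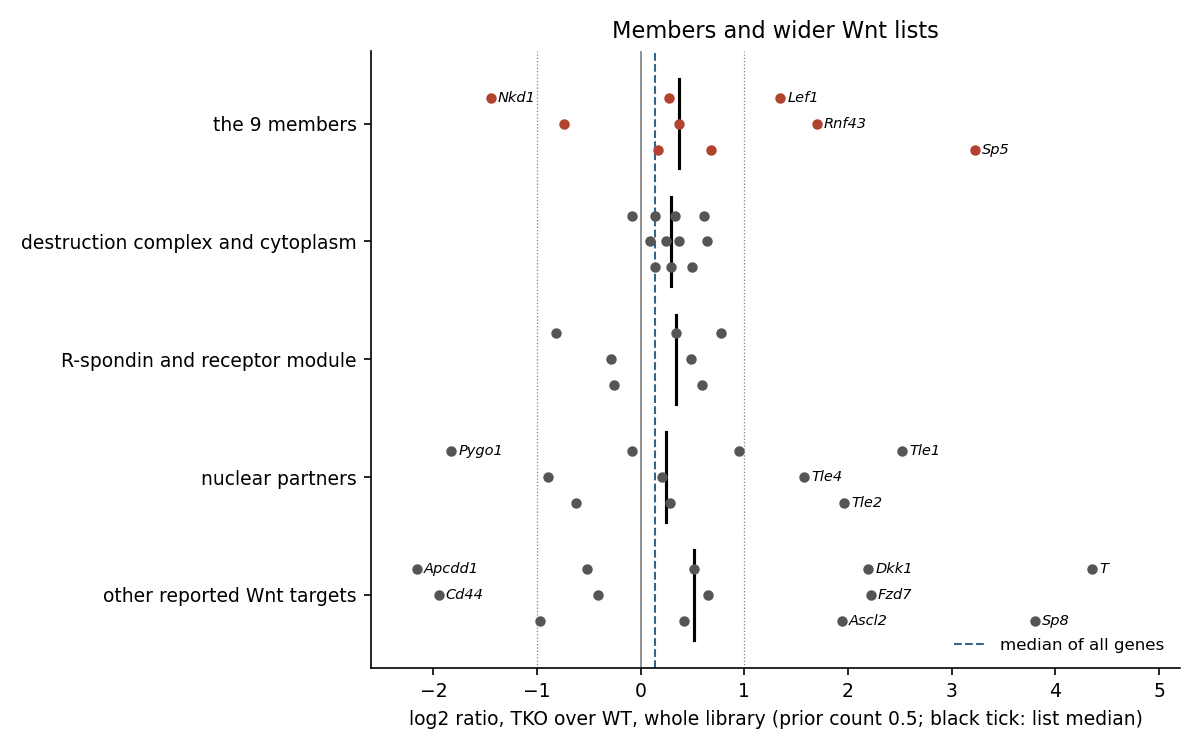
Log2 ratio of TKO over WT over the whole library for the 9 members (top row) and the tested genes of 4 wider Wnt lists, 1 point a gene, with the list median as a black tick, 2-fold as dotted lines and the median of all genes as a dashed line. The destruction complex and receptor lists lie within 2-fold, and the members and other targets reach past it on either side.

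The likeness of each member to other genes was taken as the Pearson correlation of log2(CPM + 1) over the 12 groups, among 7636 genes with at least 20 CPM in 1 group. The groups share 2 libraries, their depths and their kinds, so the values are a description with no test. Lef1 was most like Sox11 (r = 0.97), Stag1 and H2afv, and Axin2 most like Ppih (0.96), Zfp105 and Tbpl1. Sp5 was most like Wipf2 (0.94), Cldn4 and Emb, and Rnf43 most like Abcc4 (0.96), Clic6 and Gal3st1. Nkd1 was most like Mfap2 (0.94), a microfibril protein gene, Bbx and Aplp1. Znrf3 was nearest to Vkorc1l1 (0.97), Pik3c2a and Gja1, Tcf7 to Arl2 (0.88), Fgfr2 and 1810043H04Rik, and Rspo3 to Rilpl1 (0.89), Btbd1 and Dcaf10. Notum, at 0 in 7 of the 12 groups, was nearest to Eif3g (0.87), Ndufaf1 and Ei24. Between members the highest value was 0.72, for Axin2 with Lef1, and the lowest -0.76, for Rnf43 with Rspo3.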

How the data were processed

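Single-cell RNA was measured in day 5 TKO-labelled and WT-labelled embryoid body cells, 1 library each. The deposited tables hold whole-number counts for each gene in each cell, which are read here as UMI counts. Per the submitters' processing notes, Seurat 3 and build mm10 were used in the series, with no role given, beside BSMAP, MACS2 and DESeq2, whose use on these libraries is not recorded. Chemistry, aligner, counting tool and strand setting: not given in the sources used here.

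The TKO-labelled header named 3224 barcodes for 3223 values a row, so cells were read by position. In 116 row names an ending differed between tables, and rows were matched by position. Cells were kept with at least 500 genes, 1000 UMIs and at most 15% mitochondrial UMIs, which removed 26 TKO and 3 WT cells. Scrublet in scanpy 1.11.5 marked 1 TKO and 3 WT cells, which were removed, a share too small for the caller to have worked, so doublets remain.

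Counts were summed per library and kind and scaled to CPM. Intervals are exact Poisson for levels, binomial for ratios and Clopper-Pearson for shares (scipy 1.17.1) at 95%, for counting error only. The floor is 3 counts. A gene was counted as past 2-fold with a prior count of 0.5 among genes with at least 10 UMIs over both libraries. For shares and gates each cell was thinned to 4000 UMIs, which left out 190 TKO and 372 WT cells. The ratios and intervals were tested on simulated Poisson counts, the model the intervals assume, so clumping of UMIs in few cells was not covered. The thinning was checked on WT cells. All 9 members are named. From the wider lists, members past 2-fold with at least 50 UMIs are named, with a few others for their role, and for each member the 3 most alike genes. The members and lists were chosen with earlier results of these data known. The alternatives covered scaling, depth, filters, gates and cells left out.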

Additional observations from a re-analysis of the deposited data

Results flagged for a closer look

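In 2 members the direction of TKO against WT differed between the kinds that both libraries held. Axin2 had a log2 ratio of -0.084 in lateral mesoderm-like cells (8.13 CPM in TKO, 8.62 CPM in WT) and 0.6774 in definitive endoderm-like cells (6.27 CPM in TKO, 3.92 CPM in WT from 2 UMIs). Znrf3 had 0.5885 in lateral mesoderm-like cells (8.64 CPM in TKO, 5.75 CPM in WT) and -0.4509 in definitive endoderm-like cells (11.5 CPM in TKO, 15.7 CPM in WT). All 4 counting intervals hold 0, and the difference between the kinds was not tested.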

How the results depend on the processing

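No paired analysis was possible because each genotype had 1 library and the labels give these libraries no replicate number, so none could be left out either. Over the whole library, 73 of 81 alternative values of the members moved by less than their counting interval and kept their direction. Median-ratio scaling moved the median log2 ratio of all genes to 0.00 and that of Rspo3 to -0.87. It put 5 wider genes past 2-fold lower, beside 12.3% of all genes in the main setting. It turned no member's direction, although the intervals of Axin2 (-0.04 to 0.51) and Tcf7 (-0.01 to 0.28) then held 0. Thinning to 4000 UMIs gave log2 ratios of 0.757 for Axin2 and 0.105 for Tcf7, intervals that held 0 for Tcf7 and Rnf43 (1.16), and a member median of 0.775. Without cells with a T UMI, Rspo3 was at -1.26 and 2 members were past 2-fold lower, beside 12.3% of all genes in the main setting. Without cells of at least 3 matrix markers, Lef1 was at 1.07, Nkd1 at -1.16, Rspo3 at -0.98 and Notum, with few UMIs, turned to -0.52. These last settings were chosen after seeing the data, and the cause of each shift was not tested.

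The counts follow their limits. At 1.5-fold 2 members were lower, 14 wider genes higher and 7 lower, and 3649 of all 15344 genes higher. The share of all genes lower at 1.5-fold is not given here, so the counts of lower genes have no background. At 3-fold 0 members were lower, and 1225 of all 15344 genes were higher and 1186 lower. With at least 50 UMIs, 1298 of 12768 genes were past 2-fold higher. With no minimum but 1 UMI, 3536 of 19426 genes were higher and 3347 lower. At least 2 of 8 markers gave 482 TKO cardiac progenitor-like and 188 TKO head and paraxial mesoderm-like cells. At least 4 gave, in TKO, 132 cardiac progenitor-like, 99 lateral mesoderm-like, 18 head and paraxial mesoderm-like, 342 definitive endoderm-like and 129 formative epiblast-like cells, and in WT 36 definitive endoderm-like and 50 extraembryonic endoderm-like cells. Gating on unthinned counts gave 515 TKO cardiac progenitor-like, 199 TKO head and paraxial mesoderm-like and 99 WT definitive endoderm-like cells, and a globin limit of 10% left 65 WT cells. Within definitive endoderm-like cells, Rnf43 turned to 0.156 and Rspo3 to 0.345 at 2 markers, and at 4 markers Axin2 turned to -0.040 and Sp5 was at 2.27. Within lateral mesoderm-like cells at 4 markers, Lef1 was at 1.75 and Rspo3 turned to 0.284. The cause was not tested, and fewer cells remain at 4 markers.

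Shares of cells with a UMI rise with depth by construction. Unthinned they were Lef1 18.9% in TKO and 6.4% in WT, Tcf7 20.4% in TKO and 15.1% in WT, Sp5 4.85% in TKO, Axin2 6.79% in TKO and 4.35% in WT, Nkd1 11.5% in TKO and 23% in WT, Znrf3 8.79% in TKO and 4.65% in WT, Rnf43 1.69% in TKO and 0.433% in WT, Notum 0.375% in TKO and Rspo3 11.8% in TKO and 18.7% in WT. Thinned to 6000 UMIs they were Lef1 11.9% in TKO and 4.77% in WT, Tcf7 12.6% in TKO and 11.2% in WT, Sp5 3.68% in TKO, Axin2 2.57% in WT, Nkd1 6.98% in TKO and 18.7% in WT, Znrf3 5.07% in TKO and 3.14% in WT, Rnf43 0.992% in TKO and Rspo3 8.53% in TKO and 14.5% in WT. Another random seed gave Rspo3 in 7.05% of TKO cells. Notum, Rnf43 and, within definitive endoderm-like cells, most members are limited by few UMIs.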

Other observations

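Rspo3 stood high in WT cells of 3 kinds that fell short of 50 cells in 1 of the libraries. In cardiac progenitor-like cells it was 18.0 CPM in TKO (57 UMIs, 35 of 320 cells) and 192 CPM in WT (43 UMIs, 13 of 29 cells, 139 to 259). In cardiomyocyte-like cells it was 17.2 CPM in TKO (16 UMIs, 7 of 100 cells) and 157 CPM in WT (20 UMIs, 9 of 16 cells, 96.1 to 243). In endothelial-like cells it was 19.0 CPM in TKO (5 UMIs, 20 cells) and 90.7 CPM in WT (94 UMIs, 112 cells). In these kinds TKO was lower, where lateral mesoderm-like cells stood at 43.2 CPM in TKO and 46.6 CPM in WT. Nkx2-5, 1 of the 8 cardiac progenitor markers, was at 0 in the WT cells of that kind.

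Ungated TKO cells held 67.4% of the Rspo3 UMIs of their library and 51.2% of its Sp5 UMIs, beside 42.0% of all its UMIs.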
